A study of Homo sapiens with 3 samples.

Results

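The RNAs made from the mitochondrial genome were examined in a map of RNA contacts of TIA1. This protein prefers U-rich RNA, acts on splice site choice and on translation, and is a component of stress granules. The members are all clusters listed on the mitochondrial chromosome, 81 of 103134 in replicate 1 and 85 of 66222 in replicate 2, assigned to 15 transcripts (2 rRNAs and 13 mRNAs) and 22 tRNA genes. They were chosen by chromosome, strand and position alone. The reproducible peak list of the study, with 2253 peaks, holds 0 mitochondrial peaks.

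The samples were 2 TIA1 immunoprecipitates and 1 input without antibody, all from HEK293T, an established human embryonic kidney line carrying the SV40 large T antigen. All were untreated apart from crosslinking with 600 mJ of ultraviolet light. In this method (eCLIP), ultraviolet light crosslinks proteins to contacted RNA, an antibody recovers one of them, and its RNA fragments are sequenced beside an input. The labels disagree on whether the replicates are technical or biological, and on the antibody (anti-TIA1 in one field, an Msi1 antibody with the same catalogue number in another), so the spread between replicates may be technical.

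The mitochondrial genome is a small circle copied from both strands into long RNAs, which are cut at the tRNAs that sit between most genes. RNA copied from the heavy strand is listed on the plus strand and carries both rRNAs, 12 of the mRNAs and most tRNAs. RNA copied from the light strand is listed on the minus strand and carries MT-ND6 and the other tRNAs. The rRNAs build the mitochondrial ribosome and the mRNAs encode subunits of the respiratory chain and the ATP synthase.

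Library totals recovered from the deposited values were 2683407 reads in replicate 1, 1997817 in replicate 2 and 2851338 in the input. The deposited log2 fold is the ratio of a cluster's share of the immunoprecipitated library to its share of the input, so 0 means an equal share. RNA that was bound less and RNA that was recovered less cannot be told apart from such a ratio. Because the deposited −log10 p is 0 for every cluster below the input, reads there are known only as the smallest pair of whole numbers that gives the fold. The 95% counting intervals below are for that pair, the widest those clusters allow, and cover counting error only.

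Most mitochondrial clusters lay below the input. In replicate 1, 70 of 81 clusters (86.4%, exact 95% interval 77.0 to 93.0) had a log2 fold below 0, against 5.68% of all clusters of that replicate. In replicate 2 it was 70 of 85 (82.4%, 72.6 to 89.8), against 3.98% of all. The counting interval lay wholly below 0 for 51 clusters of replicate 1 and 45 of replicate 2, where the share over all clusters was 0.341% and 0.378%. Of the clusters at a log2 fold of −3 or lower, the mitochondrial genome held 13 of 169 in replicate 1 (0.164% of all clusters are that low) and 12 of 126 in replicate 2 (0.19%).

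No mitochondrial cluster reached 3 in both deposited values, the log2 fold and the −log10 p. That is 0 of 81 and 0 of 85, which allows shares of up to 3.70% and 3.53% when taken as 3 clusters over the total. The exact 95% intervals reach 4.45% and 4.25%. Of all clusters, 3.09% and 5.32% passed. Among clusters with at least 100 reads, 113 of 200 nuclear clusters (56.5%) passed in replicate 1 against 0 of 24 mitochondrial ones, and 53 of 103 (51.5%) against 0 of 18 in replicate 2. With the fold limit lowered to 1 and the −log10 p limit kept at 3, 1 of 81 passed in replicate 1 (1.23%, exact 95% interval 0.03 to 6.69). In replicate 2 it was 3 of 85 (3.53%, 0.73 to 9.97). Of all clusters, 4.14% and 6.36% passed, which lie within those intervals. The mitochondrial clusters that passed lie in MT-ND6 and at the 5′ side of MT-RNR1, described below.

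The clusters of both strands fell only on the sense strand of annotated genes. All 74 plus-strand clusters of replicate 1 and 78 of replicate 2 had their midpoint in a gene copied from the heavy strand, and the 7 minus-strand clusters of each in a gene copied from the light strand. The plus-strand clusters ran from position 594 to 15746 in replicate 1 and from 594 to 15555 in replicate 2, so none lay in the non-coding control region that spans the origin of numbering. Clusters covered 28.4% and 27.3% of the rRNA length in replicates 1 and 2, 14.6% and 14.4% of the 12 plus-strand mRNAs, and 32.2% and 29.5% of MT-ND6. Between the first and the last plus-strand cluster, leaving out the stretch across the control region, the widest stretch without one was 1066 nt in MT-ND5 in replicate 1 and 826 nt, from MT-ND5 to MT-CYB, in replicate 2.

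**Figure D1:**
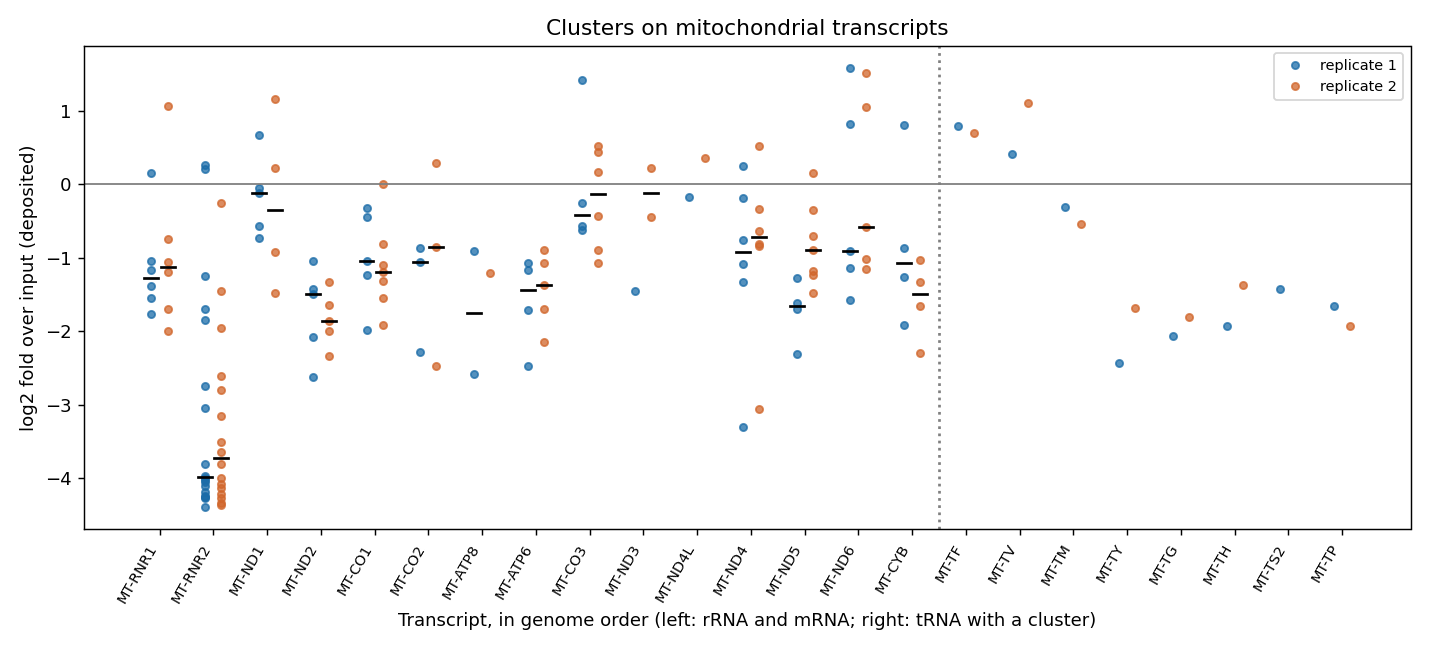
Deposited log2 fold over input of every mitochondrial cluster (vertical axis) by transcript in genome order, with black lines for the median where a replicate has more than 1 cluster. MT-RNR2 holds most of the lowest values, down to −4.39, and MT-ND6 the highest of both replicates (1.58 and 1.51).

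MT-RNR2, the large-subunit rRNA, lay furthest below the input. Its clusters had a median log2 fold of −3.98 over 18 clusters in replicate 1 and −3.73 over 16 in replicate 2, a mean of −3.86 ± 0.18 (SD, n = 2), which is 14.5-fold below the input. The next lowest transcript, MT-ND2, lay 2.18 higher on the log2 scale, beyond the pooled SD of 0.35 between replicates of a transcript median. In both replicates MT-RNR2 also had the largest read numbers of the mitochondrial genome on the input side, at least 9536 input reads at one cluster of replicate 1 and at least 19603 at one of replicate 2.

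The fold was not even along MT-RNR2. From position 1737 to 2354 the 11 clusters of replicate 1 lay between −4.39 and −3.80, and from 1713 to 2353 the 11 clusters of replicate 2 lay between −4.37 and −3.15. The cluster with the most reads downstream of these, from 2405 to 2456 in replicate 1, had a log2 fold of −3.04 (95% interval −3.16 to −2.93) on at least 649 reads over 5681. Its counterpart in replicate 2, from 2404 to 2458, had −2.79 (−2.92 to −2.67) on at least 574 reads over the same 5681. A cluster from 2513 to 2527 was at −1.24 in replicate 1, and one from 2513 to 2526 at −1.45 in replicate 2. Both replicates were thus higher there than in any cluster upstream in this rRNA. Further 3′ the fold was lower again, at −2.75 from 2858 to 2881 in replicate 1 and at −2.61 from 2860 to 2882 in replicate 2.

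The 3′ end of MT-RNR2 stood near the input. Replicate 1 had 2 clusters, from 3190 to 3200 at a log2 fold of 0.26 (95% interval 0.03 to 0.48, 344 reads over 306) and from 3201 to 3227 at 0.20 (−0.02 to 0.42, 336 over 311). Replicate 2 had 1 cluster, from 3197 to 3208, at −0.25 (−0.51 to 0.00) on at least 193 reads over 328. The replicates therefore lay on opposite sides of the input at this end, while both were above all their other clusters in MT-RNR2.

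MT-RNR1 is the small-subunit rRNA. Its most 5′ cluster was above the input in both replicates, from 679 to 759 at a log2 fold of 0.15 in replicate 1 (95% interval −0.00 to 0.30, 707 reads over 678). In replicate 2 it ran from 679 to 733 at 1.06 (0.86 to 1.27, 474 reads over 324), with a −log10 p of 24.7, the highest of any mitochondrial cluster. The bounds differ: replicate 2 listed a separate cluster from 734 to 779 at −0.75, part of which lies within the wider cluster of replicate 1. The other 5 clusters of MT-RNR1 lay between −1.77 and −1.04 in replicate 1 and between −1.99 and −0.75 in replicate 2. The transcript median was −1.28 in replicate 1 and −1.13 in replicate 2, close to those of the mRNAs and far above MT-RNR2.

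**Figure D2:**
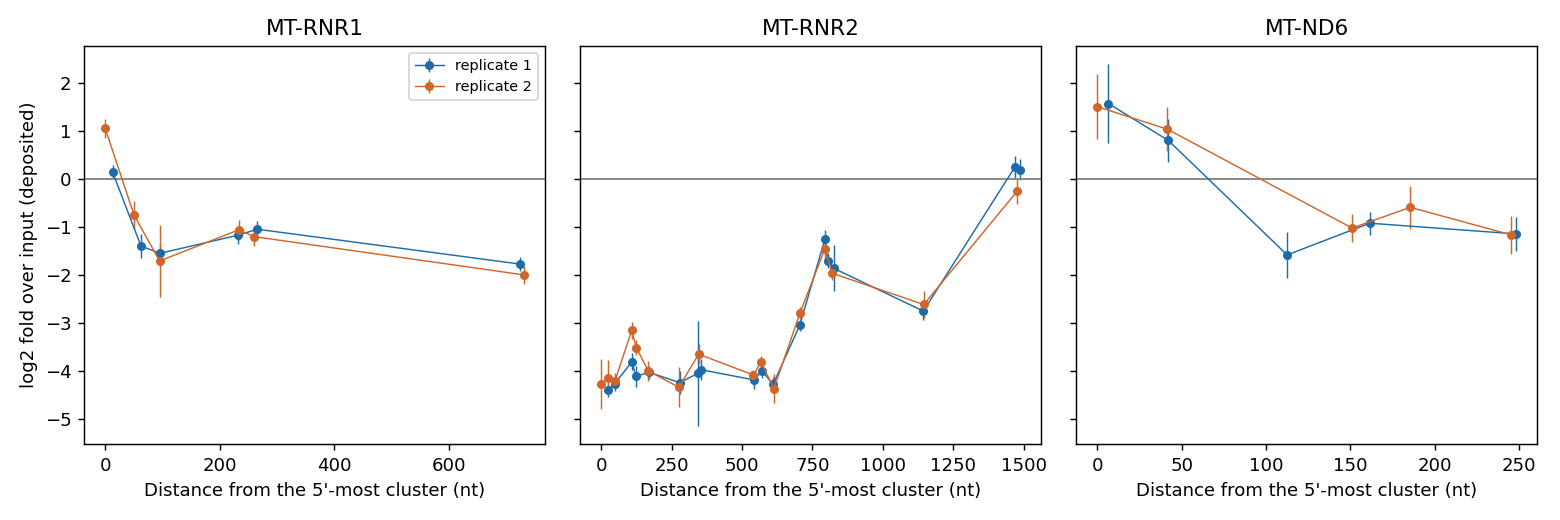
Deposited log2 fold over input of each cluster (points, with 95% counting intervals, joined by lines within a replicate) against the distance of its midpoint from the 5′-most cluster of the transcript, in nt. MT-RNR1 and MT-ND6 begin above the input and lie below it further 3′, while MT-RNR2 is lowest on its 5′ side, higher further 3′ with a dip at −2.75 and −2.61, and near the input at its 3′ end.

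MT-ND6, a subunit of complex I, is the only mRNA on the minus strand and held the mitochondrial clusters with the highest fold in both replicates. The first 300 nt of its sequence are shown because it differs in composition from every other mitochondrial mRNA. It is 525 nt long with 37.7% U and 35.6% G, where the 12 plus-strand mRNAs have 21.7% to 30.3% U and 6.28% to 16.2% G. The sequence is GENCODE's transcript on GRCh38, written with T for U, and capitals mark runs of at least 4 U.

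MT-ND6: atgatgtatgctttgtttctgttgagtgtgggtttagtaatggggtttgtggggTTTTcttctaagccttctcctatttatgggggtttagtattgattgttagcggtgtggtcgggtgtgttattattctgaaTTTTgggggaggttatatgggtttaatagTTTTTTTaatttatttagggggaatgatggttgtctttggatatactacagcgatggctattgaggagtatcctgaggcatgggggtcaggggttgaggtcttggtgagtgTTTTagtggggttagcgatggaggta

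All runs of at least 4 U in MT-ND6 lie in this stretch, at positions 55 to 58, 135 to 138, 164 to 170 and 275 to 278, counted from its 5′ end. The 7-base run is as long as the longest of the 15 transcripts, which MT-CO3 also has. The clusters were not placed on these letters, since the mitochondrial sequence of the files' build is not in the reference used here and may differ by a few nt.

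In replicate 1 the 5 clusters of MT-ND6, from 5′ to 3′, had log2 folds of 1.58, 0.81, −1.58, −0.92 and −1.14. In replicate 2 they were 1.51, 1.04, −1.02, −0.58 and −1.16. In both, the 2 nearest the 5′ end were above the input with their counting interval wholly above 0, and the other 3 were below it with their interval wholly below 0. The topmost cluster ran from 14513 to 14518 in replicate 1 (45 reads over 16, −log10 p 3.88) and from 14511 to 14533 in replicate 2 (52 over 26, −log10 p 5.08). The next ran from 14465 to 14495 with 104 reads over 63 (−log10 p 3.31) and from 14466 to 14495 with 91 over the same 63 (5.02).

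Further 3′ on MT-ND6, the cluster with the most reads in replicate 1 ran from 14328 to 14393 at −0.92 (at least 209 reads over 419). Replicate 2 split that stretch into 14328 to 14345 at −0.58 (at least 57 over 122) and 14346 to 14396 at −1.02 (at least 133 over 384). The most 3′ cluster was at −1.14 in replicate 1 (14257 to 14290) and −1.16 in replicate 2 (14261 to 14293). Over its whole set of clusters MT-ND6 thus had a median of −0.92 and −0.58, below the input, although it held the highest folds.

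Among the 12 plus-strand mRNAs the medians of all clusters were −1.07 over 44 clusters in replicate 1 and −1.03 over 51 in replicate 2. Of those clusters, 40 and 41 lay below the input, and none had a counting interval wholly above it. The 12 transcripts spread from −1.68 (MT-ND2) to 0.09 (MT-ND4L) in the mean of both replicates' medians.

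The complex I subunits covered that whole range. MT-ND2 had medians of −1.50 in replicate 1 and −1.86 in replicate 2, with each of its 5 clusters below the input in each. MT-ND5, the longest mRNA, had −1.66 over 4 clusters and −0.90 over 7. MT-ND4 had −0.92 and −0.72 over 6 each. Its lowest clusters were at different sites, −3.30 from 12086 to 12116 in replicate 1 and −3.06 from 10923 to 10932 in replicate 2, and neither had a counterpart in the other replicate. MT-ND3 rested on 1 cluster at −1.46 in replicate 1 and 2 in replicate 2 with a median of −0.11, an SD of 0.95 that was the largest of the 15 transcripts. MT-ND1 stood near the input at −0.13 over 5 clusters and −0.35 over 4. MT-ND4L had 1 cluster in each replicate, at sites that do not overlap. They were at −0.18 from 10520 to 10559 in replicate 1 (at least 5 reads over 6) and at 0.36 from 10614 to 10646 in replicate 2 (9 over 10). No side of the input can thus be read for MT-ND4L, and its 2 values are not repeats of a site.

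MT-CYB, the complex III subunit, had medians of −1.07 and −1.50 over 4 clusters each. Of the complex IV subunits, MT-CO1 had −1.04 over 5 clusters and −1.19 over 7, and MT-CO2 had −1.06 and −0.86 over 3 each. MT-CO3 was nearer the input, at −0.41 over 4 clusters and −0.13 over 6. Of these 3 subunits, the ones of complex IV that the mitochondrial genome encodes, MT-CO3 was the highest in both replicates. For the ATP synthase, MT-ATP8 had −1.75 over 2 clusters and −1.21 over 1, and MT-ATP6 had −1.44 over 4 and −1.37 over 5. Those last reading frames overlap on 1 RNA, and no cluster had its midpoint in the overlap.

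The highest folds among plus-strand mRNAs rested on few reads. In replicate 1 they were in MT-CO3 from 9920 to 9927, with 10 reads over 4 (log2 fold 1.41, 95% interval −0.26 to 3.08), and in MT-CYB from 15718 to 15746, with 18 over 11 (0.80, −0.28 to 1.88). In replicate 2 the highest was in MT-ND1 from 3313 to 3346, with 14 over 9 (1.15, −0.06 to 2.36). Each interval includes 0, so no excess over the input is detectable at this depth.

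Ordered from lowest to highest, the 15 transcripts were MT-RNR2, MT-ND2, MT-ATP8, MT-ATP6, MT-CYB, MT-ND5, MT-RNR1, MT-CO1, MT-CO2, MT-ND4, MT-ND3, MT-ND6, MT-CO3, MT-ND1 and MT-ND4L. Of the 14 steps between neighbours in this order, 12 were smaller than the pooled SD of 0.35. The exceptions were MT-RNR2 to MT-ND2 (2.18) and MT-ND6 to MT-CO3 (0.48). In both replicates the median was below the input for 14 of the 15 transcripts. For MT-ND1 and MT-CO3 the ratio of summed reads was −0.23 and −0.29 in replicate 1 but 0.041 and 0.072 in replicate 2, so no side of the input can be read for them from the sums.

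**Figure D3:**
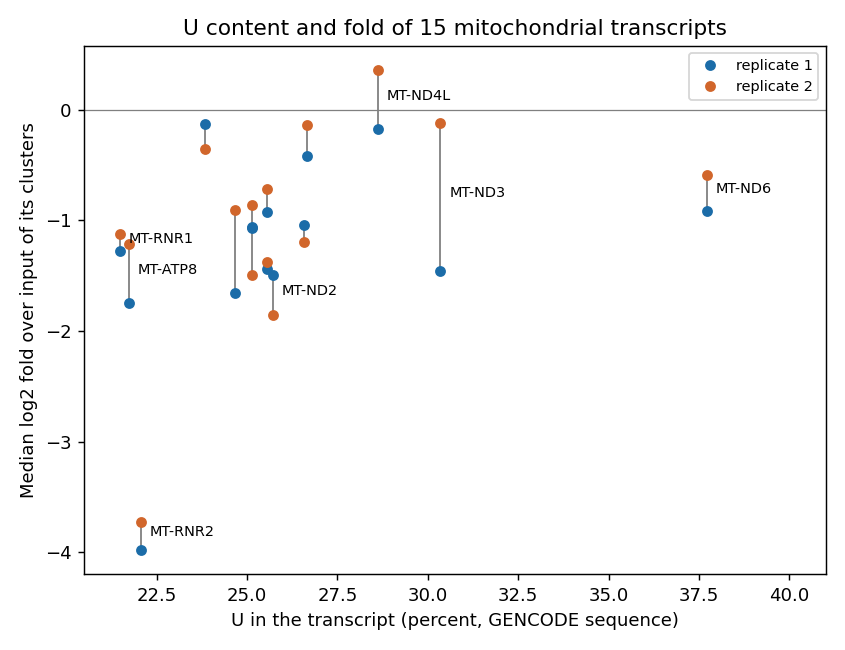
Median deposited log2 fold over input of a transcript's clusters in each replicate (vertical axis, replicates joined by a line) against the percent of U in its GENCODE sequence. MT-ND6 stands apart in U content at 37.7% but not in its median fold, and MT-RNR2 (22.1% U) is apart in fold while MT-RNR1 has nearly the same U content (21.5%).

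Across the 15 transcripts Spearman's rho between percent U and the mean of both medians was 0.50, and across the 12 plus-strand mRNAs it was 0.36. For percent G the values were 0.28 and 0.55. Pearson's r for U and G was 0.41 and −0.001 across the 15 transcripts, and 0.42 and 0.41 across the 12 mRNAs. Which of U and G went further with the fold among the mRNAs thus depends on the coefficient. These points are transcripts that share the same libraries and 1 input, some with 1 cluster, so the values only describe the plot. For the density of runs of at least 4 U along a transcript, rho was 0.25 and 0.07.

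Of the 22 tRNA genes, 8 had a cluster in replicate 1 and 7 in replicate 2, all 7 being among the 8. Those above the input were MT-TF and MT-TV, the tRNAs for phenylalanine and valine, which lie on either side of MT-RNR1. MT-TF had a cluster from 594 to 616 at 0.79 in replicate 1 (26 reads over 16) and from 594 to 615 at 0.69 in replicate 2 (17 over 15). MT-TV had one from 1621 to 1652 at 0.41 (15 over 12) and from 1619 to 1647 at 1.10 (18 over 12). Only the MT-TV cluster of replicate 2 had a counting interval above 0, from 0.04 to 2.15.

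The other tRNAs had folds below the input in each replicate that listed them. MT-TY, the tyrosine tRNA on the minus strand, was at −2.43 and −1.68, and MT-TP, the proline tRNA on the same strand, at −1.65 and −1.93. MT-TG (glycine) was at −2.06 and −1.81, MT-TH (histidine) at −1.92 and −1.38, and MT-TM (methionine) at −0.31 and −0.55. MT-TS2, a serine tRNA, had a cluster only in replicate 1, at −1.42. For MT-TM in both replicates, and for MT-TG in replicate 2, the interval of the smallest pair includes 0. For MT-TG that pair is 1 read over 5, while the input has at least 40 reads at the matching cluster of replicate 1, so the interval may be much too wide.

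The tRNAs above the input in both replicates are shown beside the pair from the minus strand below it, from GENCODE on GRCh38, written with T for U and with runs of at least 4 U in capitals.

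MT-TF: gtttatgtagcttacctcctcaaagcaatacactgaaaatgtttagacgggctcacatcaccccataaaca

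MT-TV: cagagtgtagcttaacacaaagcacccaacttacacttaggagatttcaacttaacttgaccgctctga

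MT-TY: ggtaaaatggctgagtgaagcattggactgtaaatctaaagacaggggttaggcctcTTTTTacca

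MT-TP: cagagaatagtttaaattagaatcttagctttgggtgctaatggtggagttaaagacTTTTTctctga

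MT-TF (25.4% U) and MT-TV (24.6% U) hold no run of 4 U, whereas MT-TY (27.3% U) and MT-TP (36.8% U) each hold 1 run of 5. Of the others below the input, MT-TM, MT-TH and MT-TS2 also hold no run of 4 U and MT-TG holds 2, so lacking a run did not separate the tRNAs above the input from those below.

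The median cluster of the minus strand stood at a log2 fold of −1.14 in replicate 1 and −1.02 in replicate 2, against −1.30 and −1.21 on the plus strand. By the ratio of summed reads the strands were further apart, at −0.87 and −0.74 on the minus strand and −3.08 and −3.10 on the plus strand. That gap lay in MT-RNR2, whose ratio was −3.57 and −3.52, while MT-RNR1 was at −1.10 and −0.96 and the plus strand without both rRNAs at −1.30 and −1.03. The sums add smallest pairs, so each cluster weighs by how far its pair reduces. The single input thus counts as 5035 reads at the cluster from 2249 in replicate 1 and as 19603 at the one from 2249 in replicate 2. A read that reaches into abutting clusters may also be counted in both. The sums therefore do not measure the fold of a strand, and no interval is given for them.

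**Figure D4:**
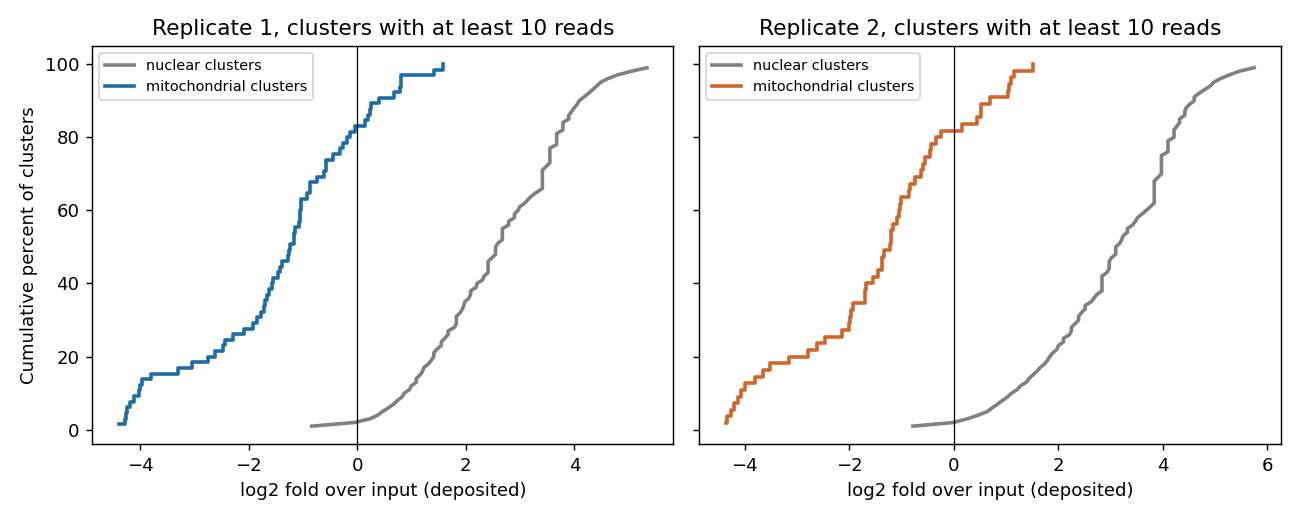
Cumulative percent of clusters with at least 10 reads (vertical axis) by deposited log2 fold over input, for mitochondrial clusters (coloured steps) and nuclear clusters (grey, percentiles 1 to 99). In both replicates the mitochondrial curve lies to the left, with medians of −1.24 and −1.21 against 2.55 and 3.10.

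Nuclear clusters were set beside the mitochondrial ones at a common minimum of reads and at matched reads. Among clusters with at least 10 reads the median log2 fold was −1.24 over 65 mitochondrial and 2.55 over 12307 nuclear clusters in replicate 1. In replicate 2 it was −1.21 over 55 and 3.10 over 6884. The mitochondrial clusters above that minimum were deeper, with a median of 26 reads against 14 and of 37 against 14. Against nuclear clusters within 10% of the same reads, the mitochondrial median was lower by a log2 difference of −3.87 in replicate 1 and −4.14 in replicate 2. That used the 81 and 82 mitochondrial clusters that had such a nuclear match. The nuclear side was the median of the medians matched to each of them. Clusters below the input enter with their smallest pair, so their true read numbers may be higher. With at least 100 reads, 20 of 24 mitochondrial clusters lay below the input in replicate 1 and 17 of 18 in replicate 2. Of nuclear clusters that deep, 16 of 200 and 9 of 103 did. The single input leaves no comparison of samples to test, and clusters of a library are not replicates, so these are descriptions of the lists.

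The replicates placed mitochondrial clusters alike. On the same strand and by at least 1 nt, 67 of 81 clusters of replicate 1 (82.7%, exact 95% interval 72.7 to 90.2) overlapped one of replicate 2, and 68 of 85 (80.0%, 69.9 to 87.9) the reverse. Over all clusters the shares were 28.9% and 45.0%, at a median of 4 reads per nuclear cluster in each replicate against 19 and 15 per mitochondrial one. In 49 pairs that covered at least 50% of each other, the median absolute difference in log2 fold was 0.23, and 13 pairs differed by more than 0.5. The largest difference, 1.37, was in MT-ATP8 from 8454 to 8478 in replicate 1 (−2.58). Both folds of a pair are over the same input, so these differences leave out the error of the input.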

How the data were processed

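The genome build was hg19, with STAR 2.4.0i, SAMtools 1.4.1 and cutadapt (1.9.1 and 1.14), per the submitters' processing notes. How clusters were called is not given in the sources used here, nor is how reads matching nuclear copies of mitochondrial sequence were treated. The authors called clusters in each replicate separately and deposited for each a log2 fold over input and a −log10 p, which stops at 400 and is 0 below the input. These units were inferred from the values, as no file has a header.

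Library totals and read pairs were recovered from the steps of the fold and from the p-values (relative tolerance 2e-05). On 4000 simulated clusters, 3263 were recovered uniquely, all 3263 rightly. The simulated p-values came from the formula used for recovery, with the library totals given. That run therefore checks the arithmetic only, not the recovered totals or the authors' formula. In the deposited lists, 88.6% of clusters of replicate 1 and 93.9% of replicate 2 were recovered uniquely. Clusters below the input cannot be, so the smallest pair was used for them in place of the planned limit to unique reads, which would have kept only clusters above the input. Of the rest, 4829 and 1101 clusters matched several pairs and took the smallest match. Another 1075 and 270 matched none and took the smallest pair. Those include MT-CO2 from 8131 to 8140 and MT-ND5 from 13585 to 13595 in replicate 2. The 7 and 6 clusters at the ceiling have no recovered reads, so comparisons with a minimum of reads or at matched reads leave them out.

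Clusters belonged to the gene of the same strand that holds their midpoint, with spans of GENCODE 29 on GRCh38. Its mitochondrial sequence may differ from that of the files by a few nt, and spans moved by 2 nt were tried. Positions are printed from 1 in the build of the files. Single clusters were named by a rule: on each strand and in each replicate, the 3 with the most reads and the 3 with the highest fold among those with at least 10 reads. Others were named as members' values after these were seen. Python 3.11.15, scipy 1.17.1 and bedtools 2.31.1 were used. The members, lists and settings were chosen with earlier results of these data known. Nuclear respiratory chain genes were not analysed here.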

Additional observations from a re-analysis of the deposited data

How the results depend on the processing

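No paired analysis was possible because the only replicated group is the immunoprecipitate, with 1 input. Mitochondrial clusters called were 0 in each replicate, where 3.09% and 5.32% of all clusters passed. The stricter limits, a log2 fold of 4 and −log10 p of 5, must then also give 0 and add nothing. At a log2 fold of 1 they were 1 and 3, where 4.14% and 6.36% of all clusters passed. Above the input with no limit on p they were 11 and 15, where only 5.68% and 3.98% of all clusters lay below it. Uniquely recovered reads leave only clusters above the input. Limited to them, the ratio of summed reads (mean of replicates) reversed to 0.57 (plus strand) and 1.10 (minus strand). By transcript it was 0.61 in MT-RNR1, 0.69 in MT-ND1, 0.90 in MT-CO3, 0.38 in MT-ND4 and 1.10 in MT-ND6. By this mean ratio 14 transcripts lay below the input with all clusters. With unique reads 0 did, since the 5 transcripts left keep only clusters above it. The count of medians below the input in both replicates, also 14, is a different measure. By the median of deposited folds the strands stood at −1.26 (plus) and −1.08 (minus). Without the rRNAs the plus strand stood at −1.17 by the ratio of summed reads, and at −1.02 by the median. These last 2 settings, and the nuclear comparison without the rRNAs, were chosen after seeing the data. Leaving out a replicate gave −3.10 to −3.08 (plus), −0.87 to −0.74 (minus) and 12 to 15 transcripts below the input, all by the ratio of summed reads. Leaving out replicate 2 or replicate 1, the ratio of summed reads went from −0.23 to 0.041 in MT-ND1 (−0.10 with both), from −0.29 to 0.072 in MT-CO3 (−0.11 with both) and from −0.18 to 0.36 in MT-ND4L. With at least 10 reads 12 transcripts lay below the input by that ratio, with no value for MT-ATP8 and MT-ND4L. MT-ND1 was then at 0.46, and the cause was not tested. Spans moved by 2 nt, the largest overlap and clusters wholly inside a span left the count of 14 by the ratio of summed reads as it was. The strand ratios did not change either, but they are summed by the deposited strand and not by span, so these settings do not test them. Overlap with the other replicate was 60.5% and 57.6% for reciprocal overlap and 0% on the opposite strand in both. The median mitochondrial fold less the nuclear one was −2.95 and −3.29 over all clusters, −3.79 and −4.31 with at least 10 reads, and −3.87 and −4.14 against nuclear clusters within 10% of the same reads. Folds of clusters with under 20 reads are limited by depth.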
